A study of Homo sapiens with 4 samples.

Results

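Interferon-stimulated genes, together with the receptors, kinases, sensors and transcription factors of interferon signalling, were followed in MDA-MB-231 cells depleted of DBC1 (gene symbol CCAR2). The set was a list of 53 gene symbols chosen by function. Of these, 52 had a probe set that carried that symbol alone, out of 18417 genes named in this way on the array, and STAT2 was not analysed here. Each gene had 1 such probe set. MDA-MB-231 is a long-established line of human breast carcinoma cells that lack hormone receptors and look mesenchymal. Total RNA was measured on 4 Affymetrix arrays, 2 for a control line with a non-specific hairpin (shNS, a short hairpin RNA) and 2 for a knockdown line with a hairpin against DBC1 (shDBC1). All cells were cultured in the same serum-containing medium and received no further treatment, so no interferon was added in either line. The replicates of each line carry the numbers 1 and 2, and the series describes them as independent and biological, without saying what arrays of the same number share. How many hairpins were used against DBC1, and whether either line was a clone, is not given in the sources used here.

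Interferons are secreted cytokines that cells release when RNA sensors such as RIG-I (RIGI) and MDA5 (IFIH1) bind viral or misplaced double-stranded RNA. Type I interferons bind a receptor of IFNAR1 and IFNAR2, which activates the kinases JAK1 and TYK2, and type II interferon binds IFNGR1 and IFNGR2, which activates JAK1 and JAK2. The STAT and IRF9 complex assembled by type I interferon binds the interferon-stimulated response element (ISRE), and STAT dimers formed after type II interferon bind the gamma-activated site (GAS). The genes switched on encode antiviral effectors, and many carcinoma lines hold part of this programme at a steady level without added interferon.

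The deposited values are log2 intensities, with array medians of 7.32 to 7.40 over all probe sets. CCAR2 read 9.62 and 9.41 on the shNS arrays numbered 1 and 2 against 8.76 and 8.16 on the shDBC1 arrays, a difference of -1.06 (limma SE 0.23) that left 48.1% of the control intensity. Of the mesenchymal-like breast line markers, 7 of 8 were measured, and their mean lay between 12.5 and 12.7 on every array. Of 7 leukocyte markers measured, 5 reached the mean level used to leave out dim genes, CD68 being the brightest (11.7 to 12.1 over the arrays), and PTPRC and CD3E did not. Of 5 markers of plasmacytoid dendritic cells, the main producers of type I interferon, GZMB reached it (7.14 to 7.20) and the other 4 did not. In RNA of whole cultures, less RNA in every cell and fewer cells that express a gene cannot be told apart.

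Stretches upstream of 10 of the genes are shown because they hold the letters of the response elements through which interferon acts, and because the genes that carry them went different ways on these arrays. They come from the RefSeq promoter table (build GRCh38.p14), run 5′ to 3′ on the gene's strand and end before its annotated start, and capitals mark the match. In IRF1 the match is the GAS core, TTC and GAA separated by any 3 bases. In the others it is the ISRE core, GAAA and GAAAC separated by any 2 bases, or its reverse complement, with overlapping matches run together.
IRF1, chr5:132490874-132490912, minus strand: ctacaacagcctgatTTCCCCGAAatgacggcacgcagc
SAMD9, chr7:93118090-93118130, minus strand: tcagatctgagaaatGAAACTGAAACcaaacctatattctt
IFIT3, chr10:89327825-89327899, plus strand: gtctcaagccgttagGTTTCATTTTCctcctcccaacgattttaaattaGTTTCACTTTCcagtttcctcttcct
ISG15, chr1:1013369-1013415, plus strand: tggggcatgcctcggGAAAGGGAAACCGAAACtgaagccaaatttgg
IFITM1, chr11:313985-314025, plus strand: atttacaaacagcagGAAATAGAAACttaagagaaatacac
IFITM3, chr11:320870-320927, minus strand: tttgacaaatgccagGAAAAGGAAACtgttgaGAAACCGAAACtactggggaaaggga
IFI6, chr1:27672260-27672363, minus strand: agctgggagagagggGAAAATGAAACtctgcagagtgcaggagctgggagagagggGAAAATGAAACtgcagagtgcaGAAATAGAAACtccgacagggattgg
DDX60, chr4:168318780-168318855, minus strand: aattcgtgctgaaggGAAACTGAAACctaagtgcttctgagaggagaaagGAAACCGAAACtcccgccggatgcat
OAS3, chr12:112938447-112938473, plus strand: cggagagccgggcggGAAAACGAAACc
PARP9, chr3:122564323-122564351, minus strand: gggcgcaaaGTTTCAGTTTCgcttccctg

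The interferon genes were on balance slightly lower in shDBC1 cells, and none of the differences passed the test. A gene was tested when its mean over the 4 arrays reached a log2 intensity of 6.58, the 25th percentile of all genes, which 49 of the 52 did. In limma's fit of shDBC1 against shNS, 0 of the 49 had a Benjamini-Hochberg adjusted p under 0.05 (adjusted over all 13813 genes tested, of which 0, or 0%, were called), and that adjusted p was 1 for every one of the 49. CCAR2, the target of the hairpin, was not called either (limma unadjusted p 0.0076). Without adjustment 2 interferon genes, IRF1 and SAMD9, were lower at p under 0.05, which is 4.08% of the 49 against 2.57% of all genes tested, and 0 were higher, against 0.869%. The difference was below 0 in 36 of the 49 genes, against 47.7% of all genes tested, with a median of -0.11 against 0.0065 over all genes tested. This median moved with single arrays. Leaving out the shNS array numbered 1 gave -0.21 and leaving out the one numbered 2 gave -0.036. For the shDBC1 arrays the corresponding medians were -0.054 and -0.21.

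Within same-numbered arrays, shDBC1 minus shNS was negative for both numbers in 25 of the 49 genes, against 27.6% of all genes tested. It was positive for both numbers in 5, against 26% of all genes tested. In 19 it pointed opposite ways or, for IRF3, was 0 between the arrays numbered 1. The same held for 6409 of all 13813 genes tested. Both shDBC1 readings lay below both shNS readings in 16 genes, a pattern found in 13.2% of all genes tested. The reverse, with both shDBC1 readings above, was found in 0 of the 49 against 11.6% of all genes tested. The median difference was -0.11 between the arrays numbered 1 and -0.13 between those numbered 2. The genes were listed with earlier results of these data known, so these counts describe the arrays and are not a test of the set.

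**Figure D1:**
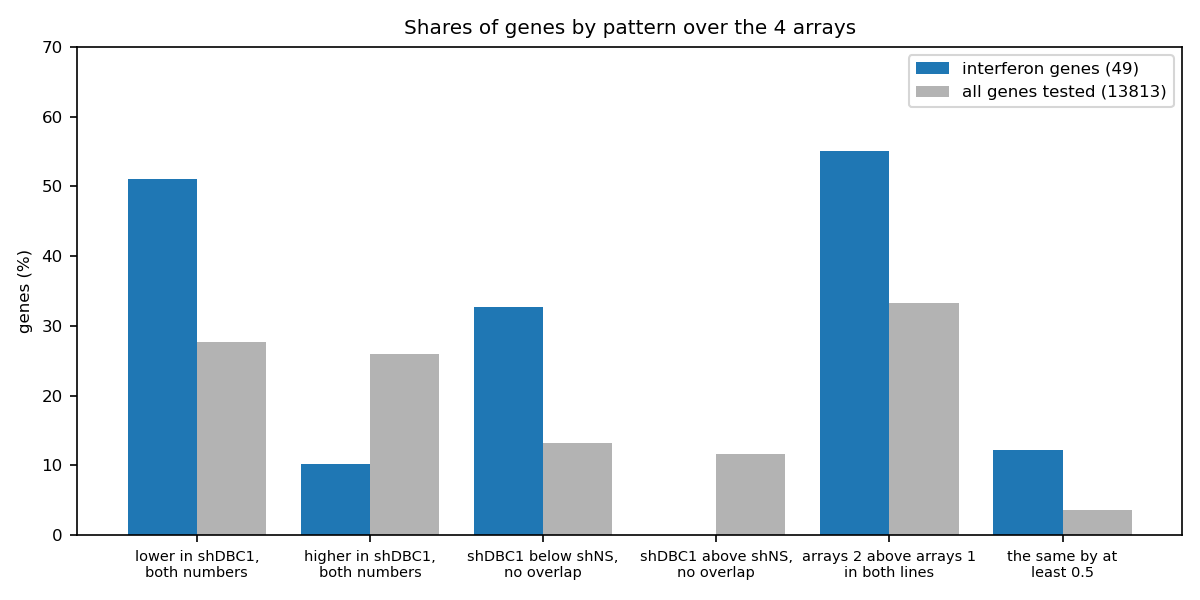
Percentage of the 49 interferon genes tested (blue) and of all 13813 genes tested (grey) that showed each pattern over the 4 arrays. Patterns with shDBC1 lower were more frequent among the interferon genes (25 genes lower in both numbers, 16 without overlap) and patterns with shDBC1 higher less frequent (5 and 0), and 27 genes were above in the arrays numbered 2 of both lines.

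Of the interferon ligands, IFNB1, the classical first-wave type I interferon, was listed among the dim genes, at 4.44 on both shNS arrays and at 4.26 and 4.44 on the shDBC1 arrays. IFNL1, a type III interferon, read 7.26 and 6.86 in shNS and 7.09 and 7.07 in shDBC1. Its shDBC1 readings fell between those of the controls, and its interval ran from -0.42 to 0.46. How far any reading stood above background was not analysed here.

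In all 4 receptor genes the readings of the lines overlapped, with differences from -0.30 (IFNGR1) to -0.0043 (IFNGR2). IFNAR1 read 9.85 and 10.08 in shNS and 9.96 and 9.70 in shDBC1, so that the difference was 0.11 between the first arrays and -0.38 between the second. IFNAR2 read 8.39 and 8.77 in shNS and 8.42 and 8.51 in shDBC1, with both knockdown readings inside the range of the controls. IFNGR1, the ligand-binding chain for type II interferon, read 9.37 and 10.20 in shNS and 9.30 and 9.68 in shDBC1. Its lower reading in each line was on the first array, and the interval of its difference was wide (-1.14 to 0.54). IFNGR2, the signalling chain, gave 10.42 and 10.79 in shNS and 10.41 and 10.78 in shDBC1, readings that followed the array number and not the hairpin.

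Among the receptor-bound kinases, JAK1, shared by the receptors of all interferon types, read 11.08 and 10.88 in shNS and 11.03 and 10.97 in shDBC1. The shDBC1 readings lay inside the control range, and the interval of the difference was -0.31 to 0.34. JAK2, which serves the type II receptor, read 6.92 and 7.07 in shNS and 7.09 and 6.83 in shDBC1, with the difference pointing opposite ways in the 2 numbers. TYK2, which serves the type I receptor, read 9.35 and 9.44 in shNS and 9.29 and 9.32 in shDBC1. It was the kinase whose shDBC1 readings both lay below both controls, by -0.09 on average (SE 0.11), or -0.043 without the second shNS array.

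The 3 RNA sensor genes had a median difference of -0.22. RIGI read 9.99 and 10.00 in shNS and 9.93 and 9.63 in shDBC1, a difference of -0.22 (SE 0.14) that rested on the second shDBC1 array and was -0.067 without it. DHX58, which encodes LGP2, the regulator of the other sensors, read 7.91 and 7.98 in shNS and 7.70 and 7.76 in shDBC1. Its difference was nearly the same between the first arrays (-0.21) and the second (-0.22), and both knockdown readings lay below both controls, as they did for RIGI. IFIH1, which encodes MDA5, read 7.66 and 7.96 in shNS and 7.38 and 8.12 in shDBC1, so that its shDBC1 readings enclosed those of the controls.

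IRF1, a transcription factor that is itself induced by type II interferon, had the largest difference of the 49 genes, at 1.41-fold lower in shDBC1. It read 9.60 and 9.69 in shNS and 9.37 and 8.93 in shDBC1, a difference of -0.49 (SE 0.18, interval -0.96 to -0.025, limma unadjusted p 0.0427). Both knockdown readings lay below both controls, and the difference was larger between the second arrays (-0.75) than between the first (-0.23). With the shDBC1 array numbered 2 left out it was -0.28, and with the one numbered 1 left out -0.71. IRF2, which competes with IRF1 for the same sites, read 10.82 and 10.85 in shNS and 10.71 and 10.81 in shDBC1, a separation of the groups by a small margin (-0.07, SE 0.11, or -0.027 without the first shDBC1 array).

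The factors that act directly downstream of sensors or receptors did not separate the lines. IRF3, which is present before infection and activated by phosphorylation, read 9.67 on each of the 4 arrays, with an interval of -0.27 to 0.27. Its values had an SD of 0 in shNS and 0.00087 in shDBC1. That interval therefore rests almost wholly on the variance that limma takes from all genes, and why the values were tied was not examined. IRF7, which amplifies type I interferon production, read 8.70 and 8.52 in shNS and 8.53 and 8.54 in shDBC1. IRF9, the DNA-binding partner of the STAT factors at the ISRE, read 8.89 and 9.37 in shNS and 8.92 and 9.34 in shDBC1, again following the array number.

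Among the effectors, SAMD9 and SAMD9L, which encode related antiviral proteins that restrict poxviruses and limit cell growth, were lower in both numbers by similar amounts. SAMD9 read 9.18 and 9.27 in shNS and 8.95 and 8.93 in shDBC1 (-0.28, SE 0.11, limma unadjusted p 0.0491). SAMD9L read 9.76 and 9.80 in shNS and 9.47 and 9.54 in shDBC1 (-0.28, SE 0.11, limma unadjusted p 0.0502). These are 1.22-fold and 1.21-fold lower levels, with no overlap of the lines and with differences between -0.23 and -0.34 in either number. The ISRE letters printed for SAMD9 were not found in the 300-base window of SAMD9L.

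XAF1, an interferon-induced gene that encodes an antagonist of the apoptosis inhibitor XIAP, read 9.14 and 9.53 in shNS and 9.02 and 8.83 in shDBC1. RSAD2, which encodes viperin, an enzyme that makes a chain-terminating nucleotide, read 7.03 and 7.21 in shNS and 6.91 and 6.67 in shDBC1. IFI35, whose product forms a complex with NMI, read 9.71 and 9.77 in shNS and 9.57 and 9.38 in shDBC1. In these 3 genes the lines did not overlap, and as for IRF1 the difference was larger between the second arrays (-0.69, -0.53 and -0.39) than between the first (-0.12, -0.12 and -0.14). The fitted differences were -0.41 (SE 0.17) for XAF1, -0.33 (SE 0.14) for RSAD2 and -0.27 (SE 0.12) for IFI35. With the second shNS array left out, XAF1 stood at -0.21. With the second shDBC1 array left out, RSAD2 stood at -0.21 and IFI35 at -0.17.

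**Figure D2:**
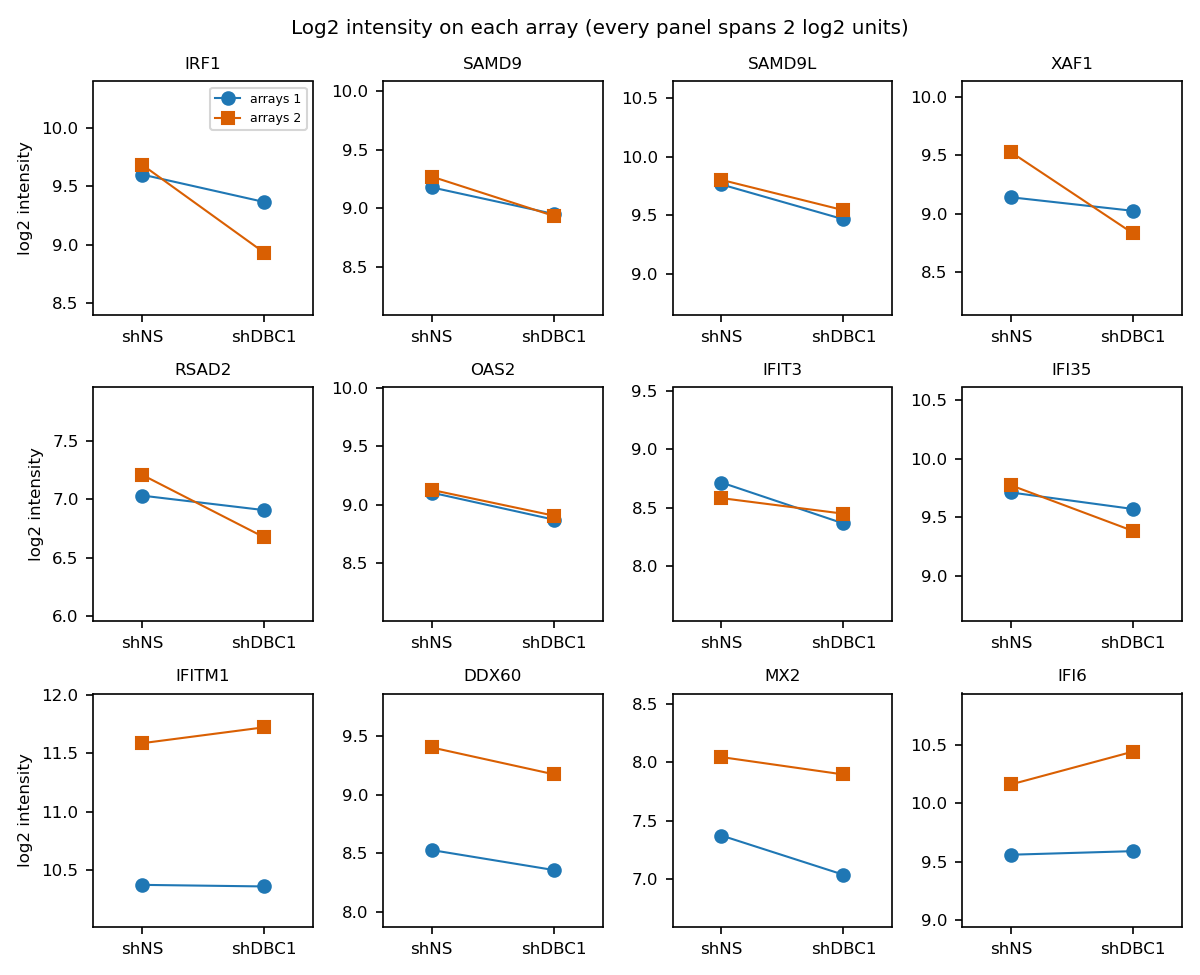
Log2 intensity (vertical axes, each spanning 2 log2 units) of 12 interferon genes on the 4 arrays, with lines joining same-numbered arrays from shNS to shDBC1, circles for the arrays numbered 1 and squares for those numbered 2. In the upper 8 panels both shDBC1 readings lie below both shNS readings, and in the bottom 4 (IFITM1, DDX60, MX2 and IFI6) the arrays numbered 2 lie above those numbered 1 in both lines.

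The ADP-ribosyltransferase PARP14 and the ubiquitin ligase DTX3L, the partner of PARP9, were also lower without overlap. PARP14 read 8.80 and 9.09 in shNS and 8.67 and 8.75 in shDBC1 (-0.24, SE 0.14). DTX3L read 9.49 and 9.70 in shNS and 9.39 and 9.36 in shDBC1 (-0.22, SE 0.12). Without the second shNS array they stood at -0.094 and -0.12. PARP9, which is transcribed away from DTX3L, differed by -0.14 (SE 0.23). The annotated starts of PARP9 and DTX3L lie 38 bases apart, and the ISRE letters printed for PARP9 are the same 11 bases as those found for DTX3L. The members of this divergent pair were thus lower in both numbers, and their readings overlapped between lines only for PARP9.

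The IFIT genes encode proteins that bind foreign RNA and block its translation, and all 4 had a negative difference, with a median of -0.21 that ran from -0.32 to -0.094 with 1 array left out. IFIT3 read 8.72 and 8.58 in shNS and 8.37 and 8.45 in shDBC1 (-0.24, SE 0.11). IFIT2 read 8.61 on both shNS arrays against 8.26 and 8.54 in shDBC1 (-0.21, SE 0.14, or -0.069 without the first shDBC1 array). For both genes the lines did not overlap and the difference was larger between the first arrays (-0.35 in each) than between the second (-0.13 and -0.07), the reverse of IRF1 and XAF1. IFIT1, the best-known member, had the widest spread of the family in the knockdown line, at 10.07 and 10.16 in shNS against 9.55 and 10.25 in shDBC1. IFIT5 differed by -0.11 (SE 0.14), with the difference positive between the first arrays.

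The OAS enzymes make short oligoadenylates when they bind double-stranded RNA. OAS2 read 9.10 and 9.13 in shNS and 8.87 and 8.91 in shDBC1, a small, even difference (-0.23, SE 0.10) with no overlap. OASL, a relative without that enzyme activity, read 8.64 and 8.83 in shNS and 8.23 and 8.68 in shDBC1 (-0.28, SE 0.19), with the second shDBC1 reading inside the control range, and stood at -0.054 without the first shDBC1 array. OAS1 was slightly higher in both numbers, by 0.04 between the first arrays and 0.13 between the second (0.08 on average, SE 0.13). OAS3 pointed opposite ways, at 0.09 between the first arrays and -0.17 between the second.

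ISG15 encodes a ubiquitin-like modifier, HERC5 its main ligase in human cells and HERC6 a relative of that ligase, and USP18 removes it and dampens the type I receptor. ISG15 read 8.57 and 8.44 in shNS and 8.30 and 8.38 in shDBC1 (-0.16, SE 0.11, or -0.10 without the first shNS array), without overlap. HERC6 read 9.22 and 8.85 in shNS and 8.97 and 8.54 in shDBC1. It was lower in both numbers (-0.25 and -0.31) although the lines overlapped, because its readings were also lower on both arrays numbered 2. Its mean difference of -0.28 became -0.062 without the second shDBC1 array. USP18 and HERC5 were lower between the first arrays (-0.08 and -0.15) and higher between the second (0.34 in each), so the group had no shared direction.

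The 7 effectors MX1, BST2, IFI27, IFI44, ISG20, CMPK2 and TRIM21 had differences between -0.15 (MX1) and 0.06 (CMPK2), and in each of them the lines overlapped. The IFITM genes, DDX60, MX2 and IFI6 are described further below, with the array numbers. CMPK2, which encodes a mitochondrial nucleotide kinase and lies next to RSAD2, thus did not show the lower readings of its neighbour. MX1 was lower in both numbers, at 8.23 and 8.73 in shNS and 8.07 and 8.58 in shDBC1.

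**Figure D3:**
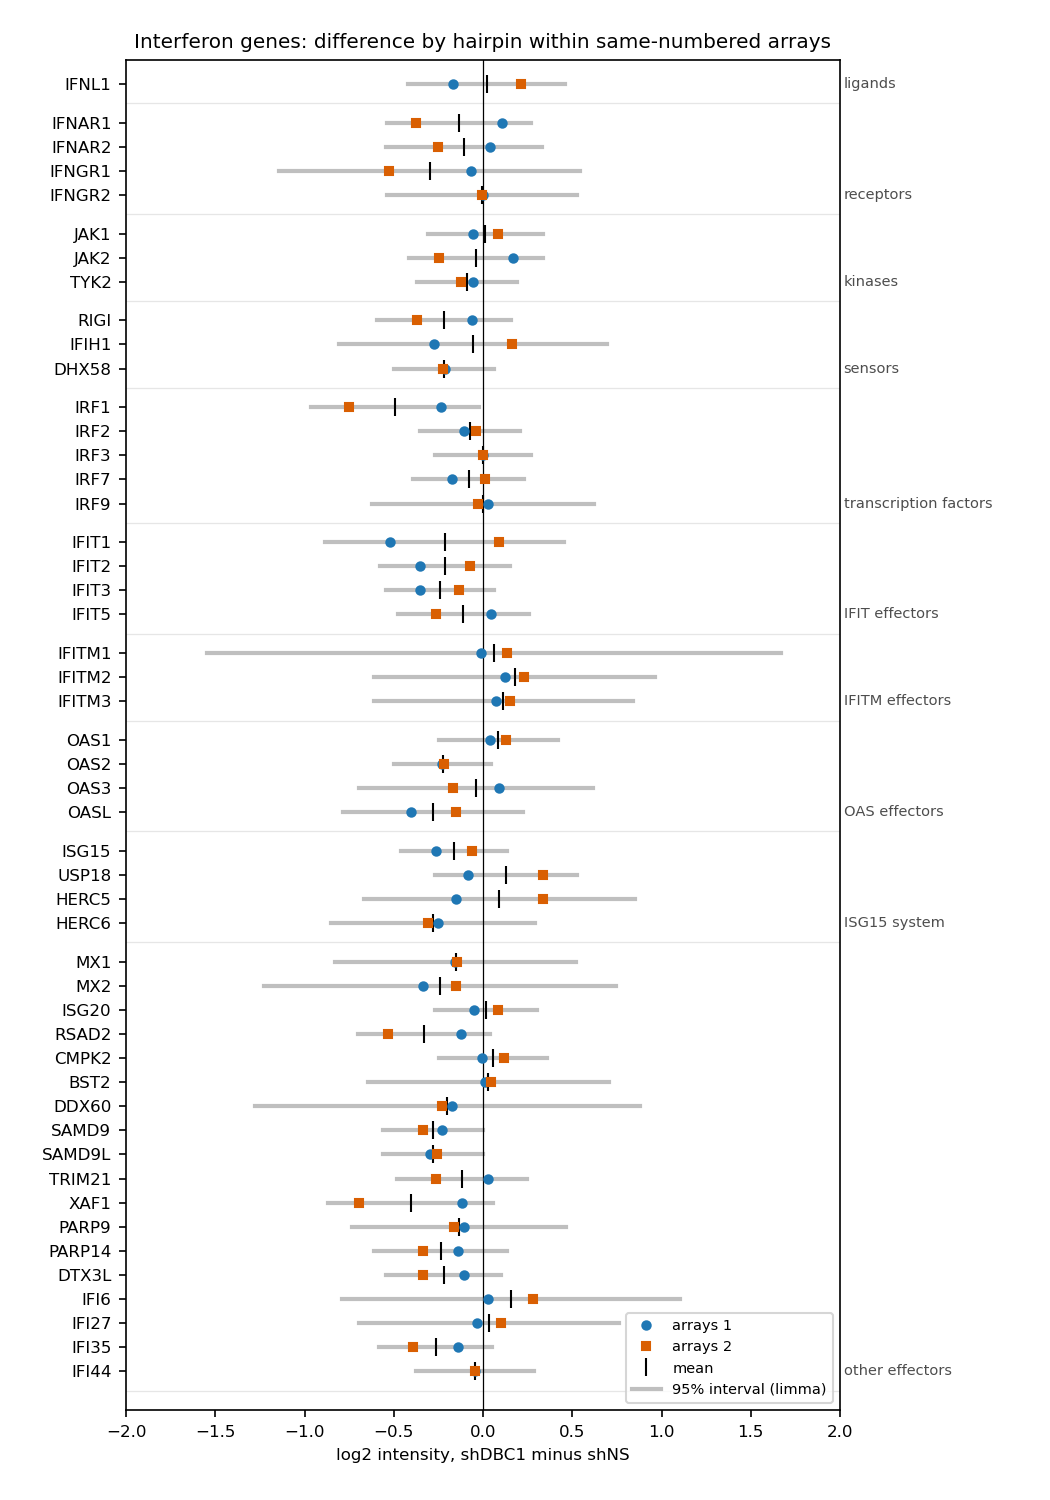
Difference in log2 intensity, shDBC1 minus shNS (horizontal axis), for each of the 49 genes tested, grouped by role, with a circle for the arrays numbered 1, a square for those numbered 2, a tick for their mean and a grey bar for the 95% interval of the limma fit. The IRF1 and SAMD9 bars end just below 0, all other bars include 0, and IFITM1 has the widest bar, from -1.55 to 1.67.

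A second pattern in these genes followed the array number and was larger than the hairpin difference in 31 of the 49 genes (63.3%), against 64.3% of all genes tested, so that this share was near the background. Readings were higher on the arrays numbered 2 in both lines in 27 of the 49, against 33.3% of all genes tested, and lower in both lines in 5, against 34.6%. Limited to a gap of at least 0.5 in both lines, a limit chosen after the values were seen, the count was 6 of 49 (12.2%), against 3.53% of all genes tested, and 0 genes had such a gap downward, against 0.876%. The 6 were IFITM1, IFITM2, IFITM3, DDX60, MX2 and IFI6.

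IFITM1, which encodes a membrane protein that blocks viral fusion, had the largest gap. It read 10.38 and 11.59 in shNS and 10.36 and 11.72 in shDBC1, so the second array was brighter by 1.21 in shNS and by 1.36 in shDBC1, or 2.44-fold on average. Its hairpin difference was 0.06 (SE 0.61), the least precise of the 49. IFITM2 read 10.14 and 10.68 in shNS and 10.26 and 10.91 in shDBC1. IFITM3 read 11.33 and 11.84 in shNS and 11.41 and 11.99 in shDBC1. The hairpin differences of IFITM2 and IFITM3 were positive in both numbers (medians of the family 0.07 and 0.15), opposite to most of the other effectors, but small beside the gap between numbers. The family median became -0.18 when shDBC1 array 2 was left out and -0.14 when shNS array 1 was left out. The 3 genes are close sequence copies, so probes of one can take up transcripts of another and values of single members are uncertain.

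DDX60, a helicase gene of the RNA-sensing pathway, read 8.53 and 9.40 in shNS and 8.36 and 9.17 in shDBC1, a gap of 0.88 and 0.82 between numbers. MX2, which encodes a GTPase that blocks nuclear entry of viruses, read 7.37 and 8.04 in shNS and 7.04 and 7.89 in shDBC1. IFI6, a membrane protein gene with 3 ISRE matches in the stretch shown above, read 9.56 and 10.16 in shNS and 9.59 and 10.44 in shDBC1. In DDX60 and MX2 the shDBC1 array was the lower of each same-numbered pair, and in IFI6 it was the higher. The dim genes TRIM22 and IFI44L had gaps of the same direction. TRIM22 read 5.75 and 6.37 in shNS and 5.46 and 6.33 in shDBC1, and IFI44L read 6.44 and 6.89 in shNS and 5.93 and 6.93 in shDBC1.

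Not all interferon genes took part in this difference between numbers. OAS3, which carries an ISRE match next to its start, went the other way, at 8.55 and 8.21 in shNS and 8.64 and 8.04 in shDBC1, as did HERC6, whose neighbour HERC5 was higher on the second arrays of both lines. IRF1, RIGI, IFIT3 and ISG15 had no shared direction between numbers. Some markers of other cell types moved with the array number too. CDH1, the epithelial cadherin, was higher on the second array by 1.14 in shNS and 1.25 in shDBC1, the monocyte marker CD14 by 1.14 and 0.90 and the fibroblast and pericyte marker PDGFRB by 0.96 and 1.11. Of the tested markers, 4 of 6 luminal, 3 of 5 leukocyte and 2 of 3 fibroblast genes were higher on the second arrays of both lines. The counts were 3 of 7 for the mesenchymal-like breast line and 0 of 1 for plasmacytoid dendritic cells, against 33.3% of all genes tested. Lower on the second arrays of both lines were FOXA1 (-0.66 in shNS and -0.11 in shDBC1), GATA3 (-0.05 and -0.16), ITGAM (-0.26 and -0.01) and GZMB (-0.05 and -0.006). The mean level of all measured luminal markers was 7.86 and 8.05 in shNS and 7.67 and 7.95 in shDBC1, and that of leukocyte markers 7.41 and 7.50 in shNS and 7.35 and 7.53 in shDBC1. Their part in the difference between numbers was not tested.

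**Figure D4:**
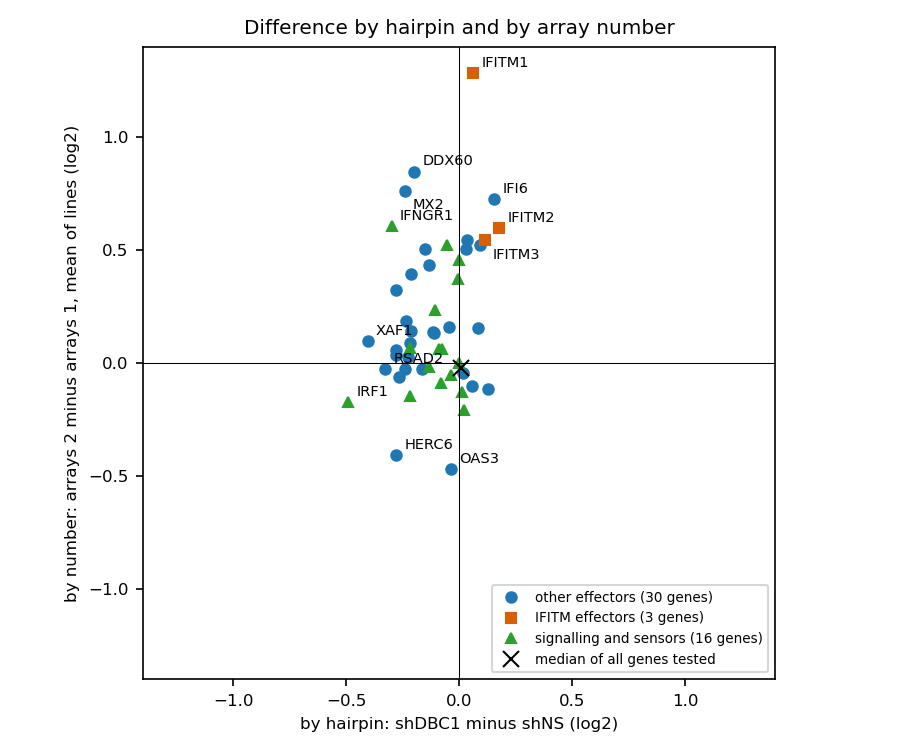
Difference by array number (vertical axis, arrays 2 minus arrays 1, mean of both lines, log2) against difference by hairpin (horizontal axis, shDBC1 minus shNS, log2) for the 49 genes tested, with the median of all genes tested as a cross. IFITM1 stands at 1.29 on the vertical axis, while no gene is beyond -0.49 on the horizontal axis.

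The intervals give the sizes of change that these arrays could still hold. For 44 of the 49 genes the 95% interval lay within 2-fold in either direction, against 12932 of all 13813 genes tested. For 26 of the 49 it lay within 1.5-fold, against 70.3% of all genes tested. The genes with an interval reaching past 2-fold were IFITM1, IFI6, DDX60, MX2 and IFNGR1, each brighter on the second arrays of both lines. With 2 arrays per group, the number of arrays limits the precision.

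The promoter table held 300-base windows, 250 bases before and 50 after an annotated start, for 41 of the 53 listed genes. It gave no entry under the symbols IFNAR2, DHX58, IRF2, IRF3, IRF7, IFIT2, IFITM2, OAS2, OASL, USP18, MX2 and TRIM22. The ISRE core (GAAA and GAAAC separated by any 2 bases), searched on both strands, was found in at least 1 window of 20 of the 41 genes and in 41.4% of their windows, against 0.795% of all 35116 windows in the table. The GAS core (TTC and GAA separated by any 3 bases), which reads the same on both strands, was found for 11 of the 41 genes and in 20.7% of their windows, against 7.66% of all windows. Some matches overlap, as in IFI27 and BST2.

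Genes with the ISRE letters had a smaller median hairpin difference than genes without them. Of the genes with a window that were tested, the 20 with a match had a median difference of -0.05, with 12 below 0, and the 18 without had -0.18, with 15 below 0. By array number the order was the other way round, with a median of 0.42 higher on the second arrays for genes with a match and 0.02 for genes without. These values ranged from -0.47 (OAS3) to 1.29 (IFITM1) with a match and from -0.41 (HERC6) to 0.61 (IFNGR1) without. The GAS letters gave the same order. The 10 tested genes with a GAS match had a median hairpin difference of -0.076, and the 28 without had -0.11. By array number their medians were 0.48 with a GAS match and 0.06 without. All these values are descriptions of genes that share arrays, and a match in the letters is not evidence that a factor binds there.

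A further list of 92 other genes of interferon production and response gave 72 that were tested. None passed in limma. At an unadjusted p under 0.05, 9 of the 72 (12.5%) were lower, against 2.57% of all genes tested, and 0 were higher, against 0.869%. The 9 included CXCL10 and CXCL11, which were tested only because their shNS readings were high, so the share of 12.5% is not a fair comparison. The median difference of the 72 was -0.039 against 0.0065 over all genes tested. This list too was drawn up with earlier results of these data known. Among 15 genes of sensing and its adaptors, TLR3, the endosomal sensor of double-stranded RNA, read 8.06 and 8.87 in shNS and 7.52 and 7.65 in shDBC1 (-0.88, SE 0.29). IKBKE, a kinase that activates IRF3 and IRF7, read 10.32 and 10.26 in shNS and 9.94 and 9.34 in shDBC1 (-0.65, SE 0.22). Both were lower without overlap, as was the adaptor gene TRAF3 (-0.33, SE 0.18). These 3 had the smallest unadjusted p of the 15 in limma, and no other gene of that list was lower without overlap. The share of 20% stands against 13.2% of all genes tested. In 1 of the 15 shDBC1 was higher without overlap, against 11.6%, and the median difference of the 15 was -0.027. For TLR3, IKBKE and TRAF3 the sizes rested partly on single arrays. TLR3 stood at -0.48 without the second shNS array and at -1.29 without the first. Without the second shDBC1 array IKBKE stood at -0.35 and TRAF3 at -0.095, and without the first at -0.95 and -0.56.

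Of 16 further signalling genes tested, STAT3 read 11.72 and 11.79 in shNS and 11.30 and 11.46 in shDBC1 (-0.38, SE 0.12). NMI, whose product binds STAT proteins and IFI35, differed by -0.56 (SE 0.19), and SOCS1, the feedback inhibitor of the JAK kinases, by -0.37 (SE 0.13). These 3 genes, which had the smallest unadjusted p of the 16 in limma, were lower in both numbers with no overlap between lines. NMI stood at -0.35 without the second shNS array. Of the 16, 5 were lower without overlap, against 13.2% of all genes tested, and 0 were higher without overlap, against 11.6%. The median difference of the 16 was -0.076. The type III ligands IFNL2 (0.06, SE 0.12) and IFNL3 (-0.08, SE 0.15), which are close copies and so uncertain, differed in opposite directions.

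Of 39 further effectors tested, 23 (59.0%) had a difference below 0, against 47.7% of all genes tested. In both numbers 15 were lower, against 27.6% of all genes tested, and 12 were higher, against 26%. CXCL10, an interferon-inducible chemokine gene and ligand of CXCR3, had readings of 8.29 and 8.27 in shNS and 5.80 and 6.17 in shDBC1. CXCL11, another ligand of that receptor, had readings of 7.52 and 7.49 in shNS and 6.36 and 5.60 in shDBC1. Their differences were -2.29 (SE 0.16) and -1.52 (SE 0.27). All shDBC1 readings of both genes lay below the level used to leave out dim genes, so that they were tested only because their shNS readings were high. Both are among the 9 genes lower without adjustment, and their sizes are not set against those of the 49 genes. PLSCR1, a phospholipid scramblase with antiviral activity, differed by -0.67 (SE 0.21), at 8.80 and 9.29 in shNS and 8.23 and 8.52 in shDBC1. It stood at -0.43 without the second shNS array.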

How the data were processed

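RNA of 4 MDA-MB-231 cultures was hybridised to 1 array each. The deposited values are log2 intensities, 1 per probe set, which the authors made with GCOS and RMA (background correction, normalisation between arrays and summary of probes), per the submitters' processing notes. Tool versions, filters and annotation build were not given in the sources used here. That the scale is log2 was read from the range of the values, 2.52 to 14.1. In RMA values the folds of dim genes are compressed, and a shift of all genes together would be normalised away.

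Of 33297 probe sets, 19460 carried 1 symbol in the platform table, and the brightest stood for each of 18417 genes. Of the 19460 probe sets, 19429 matched the RefSeq gene table by identifier, and 0 symbols were changed. Genes were tested when their mean reached the 25th percentile (13813 genes). The linear models of limma 3.58.1 (R 4.3.3, moderated by eBayes, with the line as sole term, two-sided) gave differences, standard errors (SE), 95% intervals and p-values, with Benjamini-Hochberg adjustment over all genes tested. The procedure was checked on simulated data with independent noise on each array. Those data held no difference by array number, unlike the real arrays.

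The genes and lists were chosen with earlier results of these data known. Readings on every array are printed for each ligand, receptor, kinase, sensor and factor, for the 16 tested genes with the smallest p and the 6 brightest on arrays 2 over arrays 1. Of the other pathway lists up to 3 genes each are named. The remaining effectors (such as IFIT1, IFITM3, OAS3, HERC5 and PARP9) were named after their values were seen. The alternatives were other filters, scalings, probe set rules and priors, a replicate block, and leaving out each array.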

Additional observations from a re-analysis of the deposited data

How the results depend on the processing

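All alternatives were planned. With a replicate block 113 of the 13813 genes passed in limma and 0 of the 49 interferon genes did. At a limma unadjusted p under 0.05 this fit held 8 of the 49, against 1612 of all 13813 genes tested. CCAR2 (limma adjusted p 0.0232), CXCL10 (0.00193), CXCL11 (0.0199) and PLSCR1 (0.0416) passed. CXCL10 and CXCL11 were tested only because their shNS readings were high, so no conclusion is drawn from their passing. The labels do not say what a number shares. Deviations from the line's mean correlated at 0.653 across genes between arrays of one number, which with 2 pairs is a hint from the data and not from the design. The count of interferon genes that passed was 0 under each alternative. Their median difference was -0.134 with the 50th percentile filter and -0.13 with median centring, and ran from -0.214 to -0.0356 with 1 array left out. In those fits the lone array of a line is assumed to vary like the pair of the other. The count lower in both numbers was 23 to 25 of the 49 over the other scalings and probe set rules, 20 of 37 with the 50th percentile filter and 27 of 52 with no filter.

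Small differences changed sign with the scaling. With repeated quantile normalisation IFNGR2 was 0.0042, IRF3 0.018, IRF9 0.017 and ISG20 -0.0035, with median centring JAK1 was -0.0068 and ISG20 -0.0042, and with cyclic loess IFNL1 was -0.0031, IRF3 0.00012 and ISG20 -0.0076.
With 1 array left out, which unbalances the numbers, the difference changed sign for 31 genes, with these lowest and highest values: IRF7 -0.17 to 0.010, IFITM1 -0.62 to 0.74, IFITM2 -0.15 to 0.50, IFITM3 -0.18 to 0.41, OAS3 -0.34 to 0.26, HERC5 -0.29 to 0.47, BST2 -0.23 to 0.29, IFI6 -0.27 to 0.58, IFI27 -0.27 to 0.34, IFNL3 -0.25 to 0.084, IFNL1 -0.18 to 0.22, IFNAR2 -0.30 to 0.084, IFNGR1 -0.72 to 0.12, IFNGR2 -0.19 to 0.18, JAK1 -0.087 to 0.11, JAK2 -0.17 to 0.093, IFIH1 -0.43 to 0.32, IRF9 -0.24 to 0.24, IFIT5 -0.25 to 0.032, USP18 -0.036 to 0.29, MX1 -0.41 to 0.10, MX2 -0.67 to 0.19, ISG20 -0.039 to 0.071, CMPK2 -0.024 to 0.14, DDX60 -0.64 to 0.24, TRIM21 -0.26 to 0.025, PARP9 -0.37 to 0.095, IFI44 -0.12 to 0.036, IFNL2 -0.031 to 0.15, IFIT1 -0.57 to 0.14, OAS1 -0.014 to 0.18. RMA values carry no measure of signal over background, so how far dim genes could be resolved is not known.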
